A study of Gallus gallus with 16 samples.

Results

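The genes described here are those whose RNA was found at similar levels in the ovary and the hypothalamus of laying hens and at a much lower level in the pituitary gland. They are 100 of the 17108 genes in the deposited table. For each gene the mean FPKM (fragments per kilobase of transcript scaled by library, a measure of RNA level) was taken over the 6 pituitary libraries, the 5 ovary libraries and 2 hypothalamus libraries, HEP 3 and LEP 4, and turned into log2(mean + 1), called P, O and H. A gene had to be above 0 in all 7 ovary and hypothalamus libraries used, to have a mean of at least 5 FPKM in both tissues, and to differ by less than 1.5 between O and H. These criteria left 6580 genes, and the 100 with the largest value of min(O, H) minus P are the members. The members were thus chosen by their measured levels in the 3 tissues, which are given as a description with no test.

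The libraries come from Chinese Luhua chickens, all female and 300 days old, kept with free access to water and feed. Of 856 birds ranked by egg number, those with the most and the fewest eggs formed a high egg production group (HEP) and a low one (LEP). The labels give no further treatment. The 16 libraries analysed come from 6 hens, numbered 1 to 3 in HEP and 4 to 6 in LEP. Each hen gave a pituitary library, and all but hen 2, whose other tissues are not analysed here, an ovary and a hypothalamus library (2 HEP and 3 LEP in each tissue). The labels give only whole organs, without a part of the ovary or a nucleus of the hypothalamus.

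These organs form the axis that controls laying. The hypothalamus, a region of the brain made of neurons and glia, releases gonadotropin-releasing hormone to the pituitary. The pituitary answers with gonadotropins, which drive follicle growth and steroid production in the ovary, and ovarian steroids act back on both. The ovary is built of follicles with oocytes, granulosa and theca cells, set in a stroma of connective tissue, vessels and nerves. In libraries of whole organs, fewer cells of a type and less RNA per cell cannot be told apart.

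The deposited table names genes by Ensembl identifier only. The gene table used here (RefSeq, assembly GRCg7b) holds 25635 genes, of which 0 carry an Ensembl identifier, so 0 of the 17108 identifiers were matched to a symbol. No gene name, role, position or sequence is therefore given, lists of genes by pathway or cell type could not be counted, and the tissue labels could not be checked against marker genes. In 13 libraries, 13713 to 14356 genes were listed above 0. The hypothalamus of HEP 1 had 6186 such genes, that of LEP 5 had 6843 and that of LEP 6 had 6465. These 3 libraries stand apart from the rest and took no part in choosing the members. The depth is unknown, so no interval from counting error can be given, and a gene at 0 may be one whose estimate failed.

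The median member stood at 2.42 FPKM in the pituitary, 23.2 FPKM in the ovary and 21.8 FPKM in the hypothalamus (medians of the tissue means). Pituitary means ran from 0 to 229 FPKM, ovary means from 5.35 to 6633 FPKM and hypothalamus means from 5.09 to 5768 FPKM. In the pituitary 23 members had a mean under 1 FPKM and 77 a mean under 5 FPKM. In both other tissues 78 members had a mean of at least 10 FPKM and 9 of at least 100 FPKM. The lower of both means was 4.43 to 1577 times the pituitary mean, with a median of 8.43 over the 99 members with a pituitary mean above 0. The value of min(O, H) minus P was between 2.05 and 7.07, with a median of 2.48. It was below 2.5 in 55 members, from 2.5 to 3 in 25, from 3 to 4 in 16 and above 4 in 4. For all 100 members the lowest of the 7 ovary and hypothalamus libraries was above the highest pituitary library, against 14.9% of the 6580 genes that met the level criteria. For 93 members it was at least 2 times the highest pituitary value, against 2.95%. The rule selected for this contrast, so nothing is read from these shares.

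**Figure D1:**
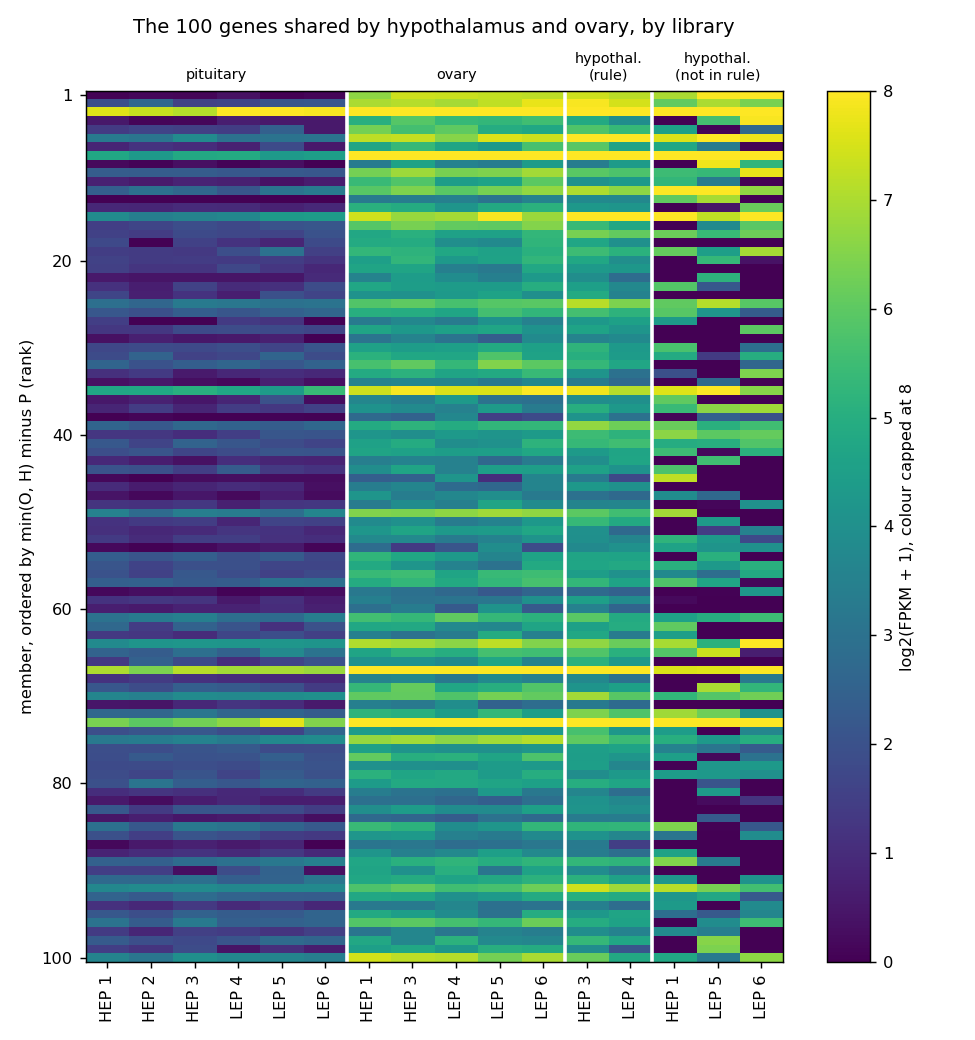
Level of each of the 100 members (rows, ordered by rank) in each library (columns, HEP and LEP with the hen number), as log2(FPKM + 1) with the colour capped at 8. Most rows are dark in the 6 pituitary columns, apart from a few abundant genes, the 5 ovary columns and the 2 hypothalamus columns of the rule are brighter, and the 3 other hypothalamus columns hold both bright cells and cells at 0.

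ENSGALG00000003537 had the largest difference of all members. It stood between 0 and 0.283 FPKM in the 6 pituitaries, with a median of 0.0691 FPKM. In the ovary it was at 98.7 and 166 FPKM in HEP 1 and HEP 3 and at 164, 154 and 147 FPKM in LEP 4, LEP 5 and LEP 6. The hypothalamus held 168 FPKM in HEP 3 and 142 FPKM in LEP 4, so LEP 4 lay within the range of the ovaries and HEP 3 just above it, and every pituitary was far lower. The 3 hypothalamus libraries outside the rule were also high, at 127 FPKM in HEP 1, 246 FPKM in LEP 5 and 284 FPKM in LEP 6.

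ENSGALG00000017274, the member ranked next, was measurable in every pituitary, between 1.97 and 5.51 FPKM with a median of 3.09 FPKM. Its ovary values were 125 and 137 FPKM in HEP 1 and HEP 3 and 120, 150 and 213 FPKM in LEP 4, LEP 5 and LEP 6. The hypothalamus held 242 FPKM in HEP 3 and 177 FPKM in LEP 4, and 66.2, 125 and 83.4 FPKM in HEP 1, LEP 5 and LEP 6. All ovary and hypothalamus libraries were above all pituitary libraries, the 3 outside the rule included.

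The most abundant member was ENSGALG00000007114, which was also present in the pituitary at 136 to 366 FPKM (median 217). It reached 6134 and 4588 FPKM in the HEP ovaries and 7951, 8834 and 5656 FPKM in the LEP ovaries. The hypothalamus libraries of the rule stood at 5885 FPKM (HEP 3) and 5651 FPKM (LEP 4), and the others at 7646 FPKM (HEP 1), 6822 FPKM (LEP 5) and 25766 FPKM (LEP 6). Only LEP 6 left the range of the ovary and the remaining hypothalamus libraries of this gene. The member next to it by the lower of both tissue levels, ENSGALG00000014857, differed less between tissues, with 84.5 to 141 FPKM in the pituitary (median 120) against 564 to 975 FPKM in the 5 ovaries and 754 and 432 FPKM in the hypothalami HEP 3 and LEP 4. Its values outside the rule were 187, 196 and 1046 FPKM in HEP 1, LEP 5 and LEP 6.

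The weakest members were ENSGALG00000015627 and ENSGALG00000007174. ENSGALG00000015627 had 3.60 to 8.28 FPKM in the ovaries, 5.59 and 4.60 FPKM in the hypothalami HEP 3 and LEP 4, and at most 0.270 FPKM in the pituitary. ENSGALG00000007174 had 6.31 to 8.01 FPKM in the ovaries but 8.52 and 1.81 FPKM in the same 2 hypothalami, and at most 0.765 FPKM in the pituitary. In both genes LEP 4 was under 5 FPKM, and HEP 3 alone carried the hypothalamus mean over that minimum.

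A single member, ENSGALG00000006497, was listed at 0 in all 6 pituitaries. It is named because its values were seen. Its ovary values were 8.51 and 9.38 FPKM in HEP hens against 10.3, 7.51 and 11.1 FPKM in LEP hens, and the hypothalami of the rule held 12.8 and 12.2 FPKM. Outside the rule it was at 64.9 FPKM in HEP 1, 122 FPKM in LEP 5 and 0 in LEP 6. A further 8 of the 9 members with a 0 in some pituitary were above 0 in another pituitary.

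**Figure D2:**
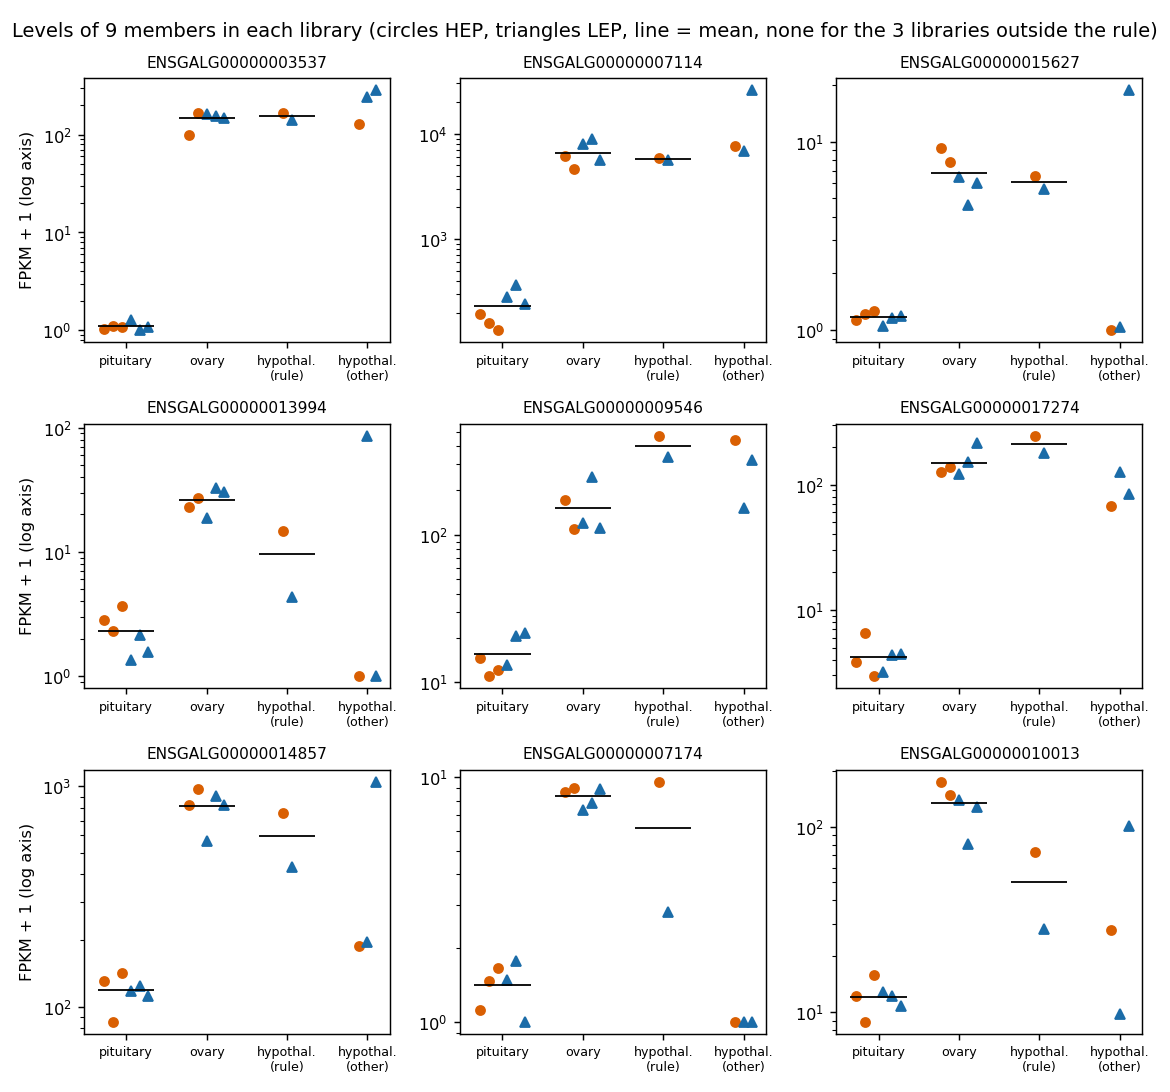
FPKM + 1 on a log axis for 9 members, by tissue, with circles for HEP and triangles for LEP libraries and a line at the mean of the libraries used by the rule. The ovary and the hypothalamus libraries of the rule lie above the pituitary in each panel, and the 3 other hypothalamus libraries spread more widely, down to 0 for ENSGALG00000015627, ENSGALG00000013994 and ENSGALG00000007174.

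The members last inside the limit were ENSGALG00000013994, at 2.06 for min(O, H) minus P, and ENSGALG00000010013, at 2.05. The genes just outside were ENSGALG00000009352 and ENSGALG00000007609, both at 2.04. ENSGALG00000009352 had 4.75 to 9.11 FPKM in the ovaries, 6.11 and 6.39 FPKM in the hypothalami HEP 3 and LEP 4 and 0.453 to 1.11 FPKM in the pituitaries. ENSGALG00000007609 had 4.76 to 8.04 FPKM, 4.33 and 5.92 FPKM, and 0.279 to 0.672 FPKM. These levels are like those of the weakest members. Another 41 genes passed the same limit but had O and H too far apart, the nearest by 1.53, where the farthest member had 1.46. Of these 41, 19 were higher in the ovary and 22 in the hypothalamus. A mean under 5 FPKM alone kept out 4 genes, the nearest with 4.85 FPKM against 5.09 FPKM for the weakest member, and a 0 in 1 of the 7 libraries or more kept out 9.

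Between ovary and hypothalamus the members were balanced. O was above H in 48 members and H above O in 52, with a median difference of -0.042. Among all 6580 genes of the level criteria O was above H in 65.3%, with a median of 0.31. The difference was within 0.5 in 53 members and at least 1 in 23. The ovary libraries were all above both hypothalamus libraries of the rule in 17 members, against 40.2% of the 6580 genes, and all below them in 18, against 15.1%. The rule bounds this difference, and these counts are a description.

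ENSGALG00000013994 leaned most to the ovary, with 17.7 to 31.7 FPKM in the 5 ovaries against 13.8 and 3.30 FPKM in the hypothalami HEP 3 and LEP 4. ENSGALG00000010013 followed, with 79.8 to 173 FPKM in the ovaries against 71.6 and 27.2 FPKM. At the other end ENSGALG00000009546 had 108 to 244 FPKM in the ovaries against 464 and 333 FPKM in the 2 hypothalami. ENSGALG00000015525 had 28.9 to 38.0 FPKM against 102 and 74.8 FPKM. The ovary and the hypothalamus libraries of the rule did not overlap in any of these 4 genes, and in each the pituitary was lower than both, at no more than 2.65, 14.9, 20.6 and 5.48 FPKM. In the 3 other hypothalami the 4 genes spread over 0 to 84.4 FPKM, 8.77 to 99.6 FPKM, 150 to 437 FPKM and 33.0 to 70.6 FPKM. For ENSGALG00000013994 the values were 0 in HEP 1 and LEP 6 and 84.4 FPKM in LEP 5, so none lay within the range of the ovary. Each of the other genes had a value within the range of its ovaries.

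**Figure D3:**
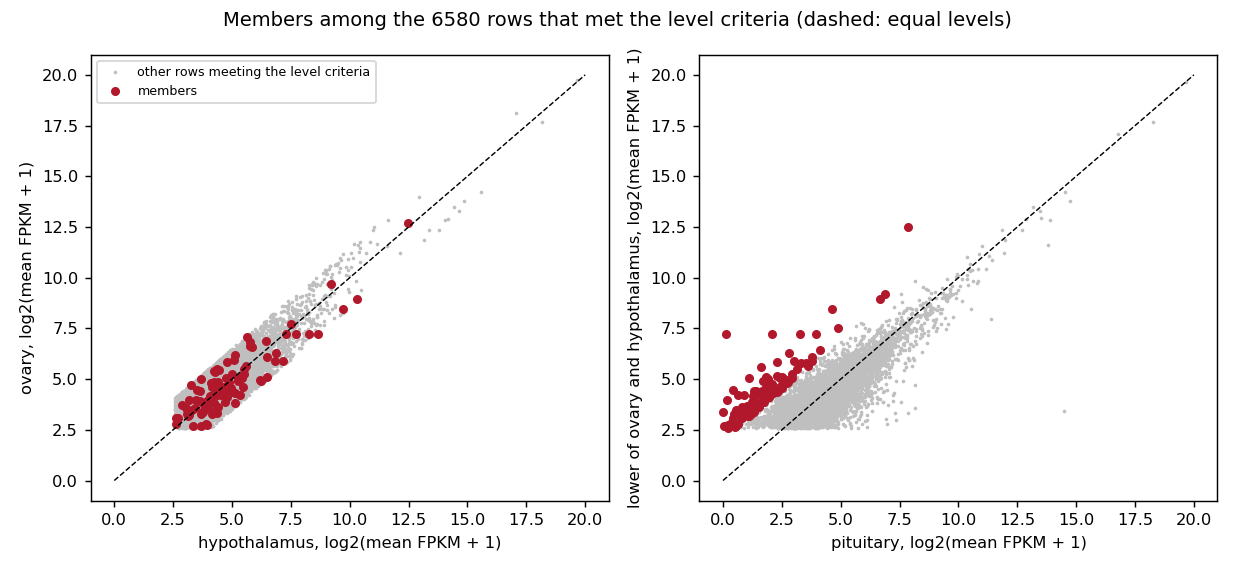
Members (red) among the other genes that met the level criteria (grey), on log2(mean FPKM + 1) axes, with ovary against hypothalamus on the left and the lower of both against the pituitary on the right. The members lie on both sides of the line of equal levels on the left and at least 2.05 above it on the right.

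The rule was also applied to each production group alone, so that the genes chosen in the hens of one group could be followed in the hens of the other. With the HEP libraries (3 pituitary, 2 ovary and 1 hypothalamus library) it gave 100 genes, and with the LEP libraries (3 pituitary, 3 ovary and 1 hypothalamus library) another list of 100, with 58 genes in common. All 58 are members, and 80 members are in the HEP list, 72 in the LEP list and 6 in neither. These counts are a description, since the lists and the members rest on the same libraries, with 1 hypothalamus library in each group. Of the 100 genes chosen in HEP hens, 95 had min(O, H) more than 1 above P in the LEP hens, where 6.15% of the 6913 genes meeting the level criteria in HEP did. A value above 2 was found for 65 of them, against 1.17%. The median of the list fell from 2.69 in HEP to 2.23 in LEP. In the other direction 99 of the 100 genes chosen in LEP hens were above 1 in HEP hens, against 9.42% of 5858 genes, and 80 were above 2, against 2.05%. Their median was 2.33 in LEP and 2.54 in HEP. A gene in the HEP list went as low as -1.21 in LEP, and a gene in the LEP list as low as -3.95 in HEP. Both lists were ranked by this same difference between tissues, and the shares beside them are of genes not ranked by it. Those genes had a median of -0.44 in LEP and -0.016 in HEP. Nothing is therefore read from the counts above 1 and above 2.

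**Figure D4:**
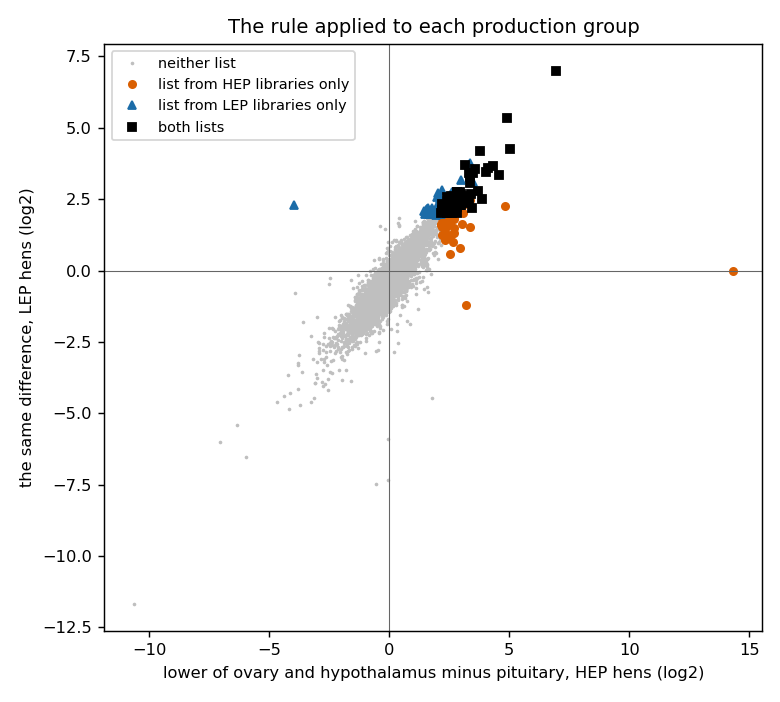
The lower of ovary and hypothalamus minus pituitary, on the log2(mean FPKM + 1) scale, in HEP hens (horizontal) and LEP hens (vertical), for genes meeting the level criteria in either group. The 58 genes on both lists lie at the upper right, and 98 of the 100 genes chosen in HEP and 99 of the 100 chosen in LEP were above 0 in the other group. These counts are a description, since this difference ranked the lists.

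The 3 hypothalamus libraries outside the rule gave a mixed picture of the same genes. In HEP 1, LEP 5 and LEP 6, 65, 71 and 64 members were listed above 0, close to the 65.3%, 69.5% and 67.7% of all 6580 genes. At least 5 FPKM was reached by 61, 56 and 53 members, against 54%, 57.3% and 55.1%. A value above all 7 libraries of the rule was found for 25, 17 and 19 members, against 18.1%, 20.1% and 24.5%. In all 3 libraries 29 members reached at least 5 FPKM, against 27.4%. These shares are near the background and are no result about the members. A level above the highest pituitary value of the same gene was found for 63, 58 and 57 members, against 27.6%, 27.8% and 30.8%. The pituitary level of the members is low by the rule, which raises this share. In all 3 libraries 31 members were above the highest pituitary value, against 5.36%, and 13 were above it in none.

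The share found in all 3 libraries rose with the hypothalamus level, among the members as among all genes. Of the 20 members that averaged at least 50 FPKM in HEP 3 and LEP 4, 19 were above 0 in all 3 libraries, against 80.3% of 1204 genes at that level. Of the 36 members from 20 to 50 FPKM, 18 were (54.7% of 2014 genes), of the 31 from 10 to 20 FPKM 7 were (28.4% of 1987 genes), and of the 13 below 10 FPKM 0 were (12.4% of 1375 genes). Over all members, 44 were above 0 in all 3 libraries, 23 in 2, 22 in 1 and 11 in 0, where 42.6% of the 6580 genes were above 0 in all 3. Whether a member is present in the hypothalamus of hens 1, 5 and 6 is therefore not known for those listed at 0.

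The members are low in the pituitary. There the library of hen LEP 5 was the highest of 6 for 29 members, against 5.18% of the 6580 genes. HEP 1, HEP 2 and LEP 4 were highest for 7, 7 and 15, also above their 1.46%, 3.21% and 4.38%. HEP 3 and LEP 6 were highest for 21 each, below 29.8% and 56%. After median-ratio scaling of the libraries LEP 5 was highest for 38 members, against 17.8%. HEP 1 and LEP 4 then had 14 and 21, against 10.2% and 11.9%. HEP 2, HEP 3 and LEP 6 had 11, 10 and 6, against 17%, 20.6% and 22.6%. In LEP 5, 20 members were at least 1.5 times the median of the other 5 pituitaries and at least 1 FPKM, against 1.37% of the 6580 genes. In HEP 1, HEP 2 and HEP 3 the count was 8, 8 and 11 members, against 0.836%, 1.34% and 5.79%, and in LEP 4 and LEP 6 it was 6 and 12, against 1.08% and 10.2%. By this measure of 1.5 times the median, a share of members above the background was found in HEP 1, HEP 2, HEP 3 and LEP 4 too. Their counts were smaller, and LEP 6 was near its background. The background is of unlike level. The median member stood at 1.78 to 2.54 FPKM in the 6 pituitaries and the median of the 6580 genes at 18.2 to 23.3 FPKM. The part of this in the counts was not tested. ENSGALG00000012027 was at 7.12 FPKM in LEP 5 and at no more than 2.81 FPKM in the other 5, and ENSGALG00000008677 at 202 FPKM and 62.1 to 99.5 FPKM. Both genes, and the counts at 1.5 times the median, were chosen after the values were seen.

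Genes enriched in 1 of the other tissues were looked at beside this, also after the values were seen. Each had a mean of at least 5 FPKM in that tissue and was above 0 in at least 1 pituitary. Of 177 genes at least 3 higher (log2) in the hypothalamus than in both other tissues, 21.5% were highest in the LEP 5 pituitary, 24.9% in LEP 6 and 24.3% in HEP 3. After scaling LEP 5 came first with 26.6%, followed by HEP 3 with 19.2%. Of 334 genes likewise enriched in the ovary 23.1% were highest in LEP 5 and 22.5% in HEP 3, and after scaling 28.1% in LEP 5 and 20.7% in HEP 2. Of the genes that met the level criteria, 5.18% were highest in LEP 5, 29.8% in HEP 3 and 56% in LEP 6. As deposited, both lists were thus above this background in LEP 5 and below it in HEP 3 and LEP 6. They were above it in HEP 1, HEP 2 and LEP 4 too, where it was 1.46%, 3.21% and 4.38%. There the hypothalamus list had 4.52%, 10.7% and 14.1%, and the ovary list 5.69%, 18.3% and 13.2%. After scaling the background was 17.8% in LEP 5, 20.6% in HEP 3 and 17% in HEP 2. LEP 4 was above its background of 11.9% too, with 17.5% of the hypothalamus list and 14.4% of the ovary list. HEP 1 and LEP 6 were below theirs of 10.2% and 22.6%. They had 6.21% and 15.8% of the hypothalamus list and 7.19% and 12.9% of the ovary list. The median of the hypothalamus list was 2.15 FPKM in LEP 5 and 1.37 to 1.67 FPKM in the other pituitaries. For the ovary list it was 0.509 FPKM in LEP 5, 0.554 FPKM in HEP 2 and 0.445 to 0.540 FPKM in the others. The median of the 6580 genes was higher, at 18.2 to 23.3 FPKM, and the part of this in the shares was not tested. The summed FPKM of the hypothalamus list ran from 676 to 882 over the 6 pituitaries, with 796 in LEP 5. For the ovary list the sum was 1289 in LEP 5, 1184 in HEP 2 and 751 to 907 in the others. The part of RNA from other tissue in the LEP 5 and HEP 2 values was not tested.

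The members varied more between hens than most genes of the level criteria. Their coefficient of variation (SD over mean) had a median of 25.1% over the 5 ovaries and 31.3% over the 6 pituitaries, where the median of the 6580 genes was 14.5% and 16.1%. The members' pituitary levels are lower, and the part of this in the spread was not tested. In the ovary, LEP 5 was either the highest (28) or the lowest library (30) for 58 members, against 18.4% and 23.5% of the 6580 genes. After median-ratio scaling LEP 5 was highest for 32, near the 30.4% of the 6580 genes, and lowest for 26, against 14.5%. LEP 6 was highest for 33, against 39.6%, and after scaling for 21, against 18%. LEP 4 was lowest for 32, against 28.3%.

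High and low egg production were compared within each tissue. The rule took means over both groups, so this difference was not used to choose the members. It was tested with limma on log2(FPKM + 1) over all genes that averaged at least 1 FPKM in the tissue, two-sided, with Benjamini-Hochberg adjustment over all genes tested and a threshold of 0.05. No member passed in any tissue. The labels do not say whether libraries of a group share a cage or a day. Within a tissue each library is from a different hen, so the spread in a fit is that between libraries of different hens. In the hypothalamus this spread also holds the difference of the libraries that list few genes from the rest.

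In the ovary all 100 members were tested and 0 passed, while 4 of all 12326 genes did (0.0325%). An unadjusted p under 0.05 was reached by 3 members, against 1.4% of all genes. These 3 were higher in HEP (0.576% of all genes) and 0 were lower (0.819%). A difference of at least 1 was found in 0 members, against 1.24%. The HEP minus LEP difference was above 0 in 61 members and below 0 in 39, where 46% of all genes tested were above 0. Its median was 0.084 for the members and -0.019 for all genes. Without LEP 4 the median of the members was 0.0036. The members' differences ran from -0.66 to 0.83, with a median SE of 0.27. HEP libraries were all above LEP libraries in 7 members (4.68% of all genes) and all below in 1 (9.49%).

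ENSGALG00000011990 had the lowest p of the ovary. Its HEP ovaries held 17.5 and 18.5 FPKM, against 10.3, 8.55 and 12.9 FPKM in LEP, without overlap (log2 difference 0.73, SE 0.22, limma adjusted p = 1.00). ENSGALG00000026864 had 36.5 and 26.4 FPKM in HEP against 18.9, 11.3 and 23.7 FPKM in LEP (log2 difference 0.81, SE 0.32, limma adjusted p = 1.00). Of the members lower in HEP, ENSGALG00000015148 came first with 88.6 and 84.3 FPKM in HEP against 99.8, 114 and 99.9 FPKM in LEP (log2 difference -0.27, SE 0.14, limma adjusted p = 1.00). In these 3 genes every HEP ovary lay on 1 side of every LEP ovary, but the differences were not called. ENSGALG00000007114 followed with the ovary values given above, which overlapped between groups (log2 difference -0.47, SE 0.28, limma adjusted p = 1.00).

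In the pituitary 77 members were tested, the other 23 having a mean under 1 FPKM there. With limma 0 of the 77 passed, as did 0 of all 11820 genes (0%). An unadjusted p under 0.05 was reached by 6 members, against 2.06% of all genes, 1 of them higher in HEP (0.719%) and 5 lower (1.35%). The difference was above 0 in 36 members and below 0 in 41, where 42.2% of all genes were above 0, and the medians were -0.016 and -0.030. HEP libraries were all above LEP libraries in 5 members (1.29% of all genes) and all below in 6 (3.84%).

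ENSGALG00000007114 had the lowest p of the pituitary, with 192, 160 and 136 FPKM for HEP and 279, 366 and 242 FPKM for LEP, every HEP library being below every LEP library (log2 difference -0.85, SE 0.21, limma adjusted p = 1.00). ENSGALG00000003879 had 4.63, 4.48 and 6.09 FPKM in the HEP pituitaries and 6.98, 8.29 and 9.85 FPKM in the LEP ones, again without overlap (log2 difference -0.63, SE 0.19, limma adjusted p = 1.00). In the other direction ENSGALG00000013994 had 1.80, 1.31 and 2.65 FPKM in the HEP pituitaries and 0.345, 1.13 and 0.547 FPKM in the LEP ones (log2 difference 0.80, SE 0.28, limma adjusted p = 1.00). ENSGALG00000005938 was at 1.25, 1.47 and 1.32 FPKM against 0.454, 1.12 and 0.531 FPKM (log2 difference 0.48, SE 0.25, limma adjusted p = 1.00). None of the 4 overlapped between groups and none was called.

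In the hypothalamus, where 3 of the 5 libraries list few genes, all 100 members were tested with limma and 0 passed, against 20 of 10703 genes (0.187%). An unadjusted p under 0.05 was reached by 5 members, against 3.12% of all genes, 2 higher in HEP (1.33%) and 3 lower (1.79%). The difference was above 0 in 68 members, where 60.1% of all genes were, with medians of 0.46 and 0.40. Quantile normalization took these medians to 0.22 and 0.013 and median-ratio scaling to 0.24 and 0.19, and without HEP 3 they turned to -0.44 and -0.88. A difference of at least 1 in size was found in 46 members, against 46.1% of all genes. The members' differences ran from -4.12 to 4.68, with a median SE of 1.88, and in this fit every SE follows the mean-variance trend alone. Between the 2 libraries that list most genes, HEP 3 was above LEP 4 in 82 members, with a median log2 difference of 0.46. Among the 6580 genes it was above in 90%, with a median of 0.47, so the members followed the difference between these 2 libraries.

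For the members named for the hypothalamus, the differences are given with and without the libraries with few genes. ENSGALG00000015148 was at 119 and 62.0 FPKM in HEP 1 and HEP 3, at 45.7 FPKM in LEP 4 and listed at 0 in LEP 5 and LEP 6 (log2 difference 4.59, SE 1.87, limma adjusted p = 0.979). Without the 3 libraries with few genes the difference was 0.43. ENSGALG00000027107 was at 149 and 8.82 FPKM in HEP, at 2.36 FPKM in LEP 4 and listed at 0 in LEP 5 and LEP 6 (4.68, and 1.55 without the 3 libraries).

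Lower in HEP were ENSGALG00000011117, listed at 0 in HEP 1, with 9.38 FPKM in HEP 3 and with 19.8, 220 and 37.1 FPKM in LEP hens (log2 difference -4.12, SE 1.65, limma adjusted p = 0.979), and ENSGALG00000015013, listed at 0 in HEP 1, with 28.2 FPKM in HEP 3 and with 14.1, 48.0 and 243 FPKM in LEP hens (-3.39, SE 1.53, limma adjusted p = 0.979). Without the 3 libraries, with HEP 3 and LEP 4 alone, the first was -1.0 and the second turned to 0.95. HEP libraries were all above LEP libraries in 18 members (12.9% of all genes) and all below in 2 (0.953%). The rule held HEP 3 and LEP 4 above 0 in the members, so these counts are not free of it.

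**Figure D5:**
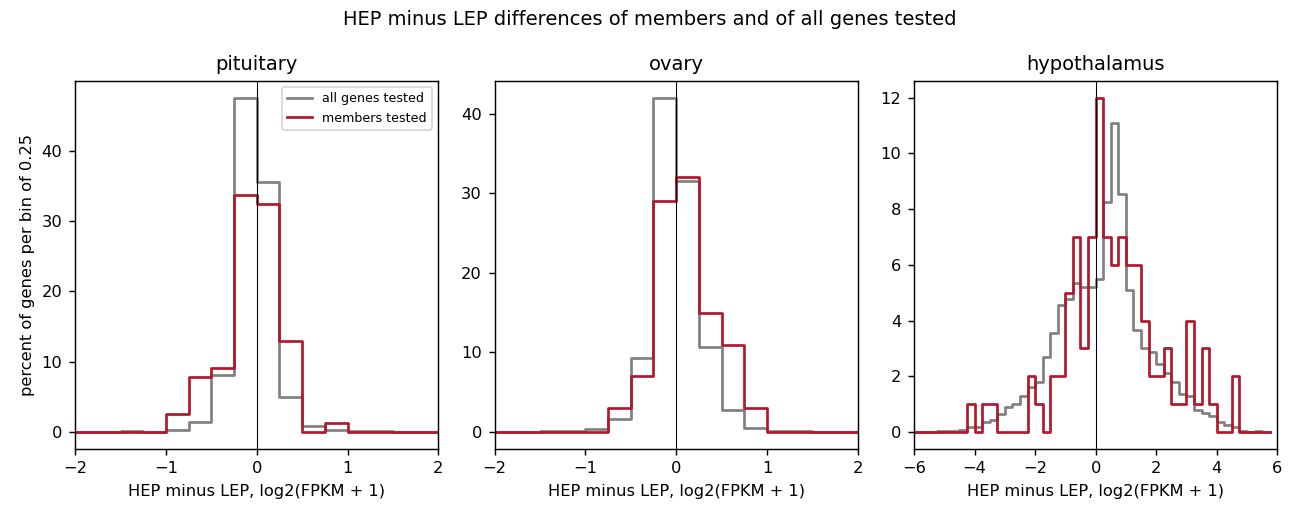
Distribution of the HEP minus LEP difference on the log2(FPKM + 1) scale in bins of 0.25, as percent of the genes tested, for members (red) and all genes tested (grey), in the pituitary (77 members), ovary (100) and hypothalamus (100). The members lie around 0 in pituitary and ovary, within -0.85 to 0.83, and spread from -4.12 to 4.68 in the hypothalamus, which has a wider axis.

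Whether the HEP effect differed between hypothalamus and ovary was tested in 1 limma model of all 16 libraries. This model takes 1 variance per gene over all 3 tissues, so the wide spread of the hypothalamus is averaged with that of the other tissues. The median SE of the members was 1.29, below the 1.88 of the hypothalamus fitted alone. The SEs and p values of this model may therefore be too small. None of the 100 members passed, against 2 of 12648 genes (0.0158%), and 12 members had an unadjusted p under 0.05, against 8.13% of all genes, 10 with a positive difference (hypothalamus effect minus ovary effect, 6.58% of all genes) and 2 with a negative one (1.55%). ENSGALG00000027107 came first with 4.21 and 4.44 FPKM in the HEP ovaries and 17.0, 1.06 and 11.2 FPKM in the LEP ovaries, beside the hypothalamus values above (log2 difference of the effects 5.21, SE 1.45, limma adjusted p = 0.549). ENSGALG00000013218 followed with 10.3 and 7.15 FPKM in the HEP ovaries, 9.10, 29.4 and 10.3 FPKM in the LEP ovaries, 21.3 and 26.8 FPKM in the HEP hypothalami, 9.07 FPKM in LEP 4 and 0 in LEP 5 and LEP 6 (4.19, SE 1.19, limma adjusted p = 0.549). When a hen was left out, 0 to 7 members passed the threshold, where 2 to 679 of all genes did. Members passed without hen 3 and without hen 4. Without hen 3 the HEP hypothalamus is HEP 1 alone, and without hen 4 the LEP hypothalamus is LEP 5 and LEP 6, all of them libraries with few genes. The ranges cover all fits with a hen left out, and the share of all genes in a single fit is not given. These member counts are therefore not read as a result about the members.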

How the data were processed

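The authors deposited a single table of FPKM values, as its name says, with 1 column for each library and 1 row for each Ensembl identifier. Per the labels' protocols, total RNA came from an RNeasy kit and libraries from the usual Illumina preparation. Aligner, counting program, genome build: not given in the sources used here. FPKM is relative to library size. The top 3 genes of each library hold 47.3% to 75.1% of its FPKM sum. A change in these may shift the other values, and this was not tested.

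Columns were tied to samples by their description. The rule and its counts were computed in Python 3.11.15 with pandas 2.3.3, and the tests with limma 3.58.1 in R 4.3.3 (empirical Bayes with trend) on log2(FPKM + 1), which understates changes of weak genes. Only the limma fits within a tissue were tested on simulated data with known changes, and the outcome is not given here. The simulation drew normal noise for each gene and held no libraries that list few genes, unlike the hypothalamus. The members and lists were chosen with earlier results of these data known. Named genes are the first 2 in each direction by rank, level, balance of ovary and hypothalamus, and p value. Hens give several tissues, as the title numbers and codes in the labels show. Deviations from the group means in 2 tissues of a hen correlated with r between -0.0649 and 0.142 over 12648 genes. Alternatives were another pseudocount, no filter, quantile normalization, a joint fit, hen as replicate block, each library left out, the 3 hypothalamus libraries with few genes left out, and, chosen after seeing the data, median-ratio scaling.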

Additional observations from a re-analysis of the deposited data

Results flagged for a closer look

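Over the 5 ovaries or 6 pituitaries, 39 sets of values of the named members were searched for a library far from the others, where chance gives about 5% of sets. The search flagged 2 of the 39 sets, near what chance gives, so both are given as a description. ENSGALG00000003537 was lowest in the ovary of HEP 1, at 98.7 FPKM, against 147 to 166 FPKM in the other 4 ovaries. ENSGALG00000013218 was highest in the ovary of LEP 5, at 29.4 FPKM, against 7.15 to 10.3 FPKM in the other 4.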

How the results depend on the processing

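The rule kept 93 to 99 of the 100 members when a pituitary or ovary library was left out. It kept 84 with the HEP and 78 with the LEP hypothalamus library alone, 86 with a pseudocount of 0.1, 77 with O and H less than 1 apart, 86 with medians and 74 with median-ratio scaling. Over all 19 settings 42 members were kept in each. Members past the threshold between HEP and LEP were 0 in every tissue under every alternative run. For the difference between hypothalamus and ovary they were 0 to 7 when a hen was left out, where the count over all genes was 2 to 679. The fit with hen as replicate block also gave 0 members, and 2 of all genes, and changed no other call, with an adjusted p of 0.817 for ENSGALG00000027107 and ENSGALG00000013218. The first passed without hen 3 (adjusted p = 0.0316) and the second without hen 4 (adjusted p = 0.00384), over ranges of 0.0316 to 0.817 and 0.00384 to 0.817. ENSGALG00000015013 reversed in the hypothalamus without the 3 libraries that list few genes (0.95 instead of -3.39), a fit in which 1 HEP and 1 LEP hypothalamus remain and are assumed to vary like the other groups.

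Over all genes, the pituitary count rose from 0 to 1 with a pseudocount of 0.1 or in the joint fit, and was 1 to 4 with a library left out. The ovary count was 4 to 12 with a library left out. The hypothalamus count of 20 became 41 with a pseudocount of 0.1, 2 with no filter or quantile normalization, 3 in the joint fit, 40 without the 3 libraries and 2 to 85 with a library left out. The count for the difference between hypothalamus and ovary, 2, became 4 with no filter, 28 without the 3 libraries and 2 to 679 with a hen left out. The causes were not tested. With 2 or 3 libraries a group and unknown read depth, small differences could not be resolved. In the hypothalamus, where the median SE of the members was 1.88, even the largest difference of a member, 4.68, was not called.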
